A study of Homo sapiens with 10 samples.

Results

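The 35 genes described here are imprinted genes, taken as a fixed list of symbols from a table of 59679 annotated human genes, and all 35 were found in it. They fall into 19 imprinted domains, of which 10 have a single listed gene. Of the 35 genes, 31 are protein-coding and 4 are noncoding RNA genes (H19, KCNQ1OT1, MEG3 and PEG13). The question was where H3K9me3, a histone mark of compacted and silent chromatin, was called in or near these genes in fibroblasts given ERH siRNA.

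The study used BJ cells, a human foreskin fibroblast line, and CUT&RUN, in which an antibody guides a nuclease to a chromatin mark and the released DNA is sequenced. H3K9me3 was profiled in 3 samples given siRNA against ERH and in 3 given non-targeting siRNA. SOX2 was profiled in 2 samples of each siRNA, 48 hours after Sendai virus delivered OCT4, SOX2, KLF4 and c-MYC. All groups received 5 nM siRNA in 2 transfections set 3 days apart. The data analysed here are a single merged list of 10536 H3K9me3 regions from the 3 ERH siRNA samples. The control siRNA samples were not analysed here, so no value below shows what ERH siRNA changed. Every position describes the cells given ERH siRNA only, and how far ERH was lowered in them was not measured here. With a single merged list there is no replicate error and no test, sequencing depth is unknown, and the 2 parental copies of a gene cannot be told apart. A list of regions holds no expression values, so the labelled cell type could not be checked from marker levels; 0 of 8 fibroblast marker genes overlapped a region, which allows a share of up to 37.5%, and 10.5% of all protein-coding genes did.

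Imprinted genes are expressed mainly from a single parental copy. The copies differ at imprinting control regions, where DNA methylation is set in the egg or sperm and kept afterwards. On the methylated copy, the zinc finger proteins ZFP57 and ZNF445 recruit TRIM28 and the methyltransferase SETDB1, which places H3K9me3. Control regions are often promoters of noncoding RNAs or of paternally expressed genes, and many imprinted genes control growth. The positions of control regions were not in the sources used here, so their overlap with H3K9me3 regions was not measured.

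The table of start sites held 21 of the 35 genes with 49 annotated starts. KCNQ1, KCNQ1OT1, ZIM2 and TRAPPC9, which have regions in the gene body as described below, were not among the 21. The only start held for RB1, at 48476450 on the plus strand, lay near the higher-coordinate end of the gene. In 0 of these 49 windows, each reaching from 250 bp before to 50 bp after a start, did a region share a base. This allows a share of up to 6.12% if the windows are taken as independent. Some windows of a gene share bases, so the limit by gene, over 21 genes, is higher. Among all 35116 annotated windows 0.313% held a region, a share that 49 starts cannot tell from 0. The start nearest to a region was that of MEST, 6.44 kb away, and the median over the 49 starts was 92.3 kb, against 142.5 kb over all starts of the table. Regions in the list are broad: 4.19% of them are under 2 kb and 0.381% under 1 kb.

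The stretches before 4 of these starts are printed because they carry the letters bound by ZFP57 and range from near to far from H3K9me3. Those of PLAGL1 and SNRPN lie at like distances, and NAP1L5 is the gene farthest from a region. MEST, PLAGL1 and SNRPN have other annotated starts whose stretches are not printed, and none of the 4 is shown here to be a control region. Sequences are from RefSeq, GRCh38.p14, 5′ to 3′ on the strand of the gene. Each is the 250 bases that end just before the annotated start, and capitals mark TGCCGC, the core of the ZFP57 motif, or its reverse complement GCGGCA. The windows are chr7:130486097-130486346 on the plus strand for MEST, chr6:144008260-144008509 on the minus strand for PLAGL1, chr15:24954737-24954986 on the plus strand for SNRPN and chr4:88697830-88698079 on the minus strand for NAP1L5.
MEST: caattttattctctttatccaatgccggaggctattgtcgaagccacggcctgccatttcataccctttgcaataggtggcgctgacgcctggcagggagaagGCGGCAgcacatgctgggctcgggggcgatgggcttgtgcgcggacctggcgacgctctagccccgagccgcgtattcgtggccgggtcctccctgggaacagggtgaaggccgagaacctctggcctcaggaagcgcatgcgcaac
PLAGL1: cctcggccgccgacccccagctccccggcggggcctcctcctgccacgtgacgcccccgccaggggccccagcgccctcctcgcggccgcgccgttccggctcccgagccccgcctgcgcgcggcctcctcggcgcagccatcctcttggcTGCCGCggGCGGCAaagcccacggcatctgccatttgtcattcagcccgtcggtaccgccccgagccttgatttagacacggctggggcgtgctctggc
SNRPN: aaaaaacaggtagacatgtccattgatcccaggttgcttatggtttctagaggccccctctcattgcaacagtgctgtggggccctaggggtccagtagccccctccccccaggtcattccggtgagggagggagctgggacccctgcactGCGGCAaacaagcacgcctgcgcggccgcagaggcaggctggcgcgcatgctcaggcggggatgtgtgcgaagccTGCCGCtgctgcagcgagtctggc
NAP1L5: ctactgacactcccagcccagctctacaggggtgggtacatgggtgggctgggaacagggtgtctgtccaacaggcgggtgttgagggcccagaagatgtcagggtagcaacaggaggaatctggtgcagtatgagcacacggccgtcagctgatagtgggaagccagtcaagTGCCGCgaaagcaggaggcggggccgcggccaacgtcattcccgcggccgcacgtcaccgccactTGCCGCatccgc

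From the start at the end of each printed stretch, the nearest region was 6.61 kb away for MEST, 89.0 kb for PLAGL1, 87.6 kb for SNRPN and 576 kb for NAP1L5. The letters occurred once in the MEST stretch and in 2 places in each of the others. On both strands they were found in 20 of the 49 windows (40.8%), against 16.7% of all windows of the same length. Starts of a gene can lie a few bases apart and share a window, so the count by gene is 12 of 21 (57.1%), against 19.5% of all 27305 genes of the table. The listed genes had 2.33 starts per gene and all genes 1.29. Their windows also held more CG pairs, with a median of 18 against 14. A match of letters is a description of the sequence and not a bound site.

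Of the 35 imprinted genes, 6 overlapped at least 1 region by 1 bp or more: KCNQ1, KCNQ1OT1, ZIM2, COPG2, TRAPPC9 and RB1. This is 17.1% (Wilson 95% interval 8.10 to 32.7%, counting error only), against 6.92% of all genes and 10.5% of the 20037 protein-coding genes. Among the 31 protein-coding members 5 overlapped, or 16.1%. They belong to 5 of the 19 domains, and KCNQ1OT1 lies within KCNQ1 and shares its regions. Long genes meet a region more often, and within length classes the shares lay close to the background or had intervals that include it. Of 11 listed genes under 10 kb, 0 overlapped, which allows up to 27.3%, against 0.755% of protein-coding genes of that length. Of 13 genes of 10 to 100 kb, 2 did (15.4%, Wilson 95% interval 4.33 to 42.2%), against 7.78%. Of 11 genes over 100 kb, 4 did (36.4%, Wilson 95% interval 15.2 to 64.6%), against 35.8%. The 2 shorter classes of listed genes include the 4 noncoding genes, and KCNQ1OT1 is 1 of the 2 overlapping genes of 10 to 100 kb. Of all genes, coding and noncoding, 1.90%, 8.87% and 38.7% overlapped, from the shortest to the longest class.

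**Figure D1:**
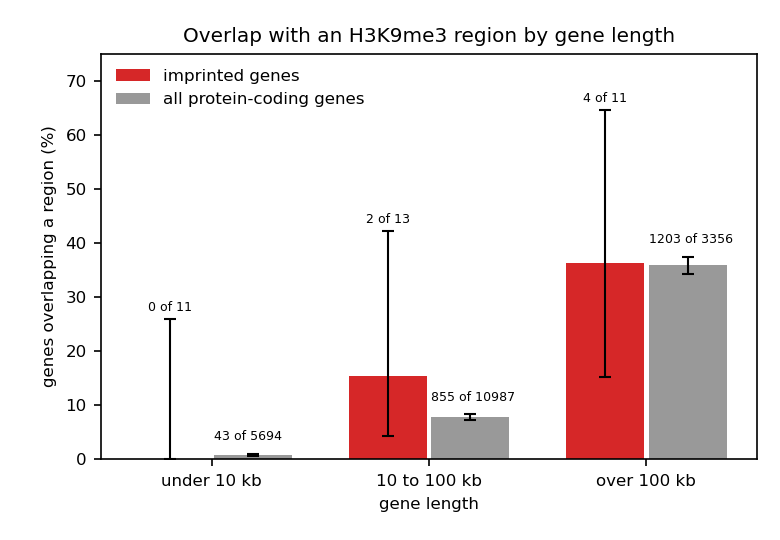
Share of genes (%) that overlap an H3K9me3 region, for the 35 imprinted genes, 4 of them noncoding (red), and all protein-coding genes (grey), in 3 classes of gene length. Error bars are Wilson 95% intervals and labels give the counts; the bars of genes over 100 kb are nearly level, at 36.4% and 35.8%.

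Distances tell the same genes apart more finely. Besides the 6 overlapping genes, 8 had a region within 50 kb of the gene body, 13 had the nearest region between 50 and 200 kb away and 8 had it over 200 kb away. Together 14 of 35 (40.0%) had a region in the gene or within 50 kb, against 29.2% of all genes and 30.1% of protein-coding genes. Of listed genes under 10 kb, 0 of 11 did, which allows up to 27.3%, against 21.3% of protein-coding genes of that length. Of those of 10 to 100 kb, 6 of 13 did (46.2%, Wilson 95% interval 23.2 to 70.9%), against 27.8%. Over 100 kb it was 8 of 11 (72.7%, 43.4 to 90.3%), against 52.8%. Within 200 kb there were 27 of the 35, against 62.1% of protein-coding genes. The 8 genes over 200 kb away are 22.9% of the list, against 37.9% of protein-coding genes. The median distance was 63.5 kb (binomial 95% interval of the median 21.1 to 79.5 kb), against 132 kb over protein-coding genes. From the shortest to the longest length class it was 107, 56.3 and 11.1 kb, against 172, 137 and 39.2 kb. The listed genes include noncoding ones. Over all genes, coding and noncoding, 25.6%, 30.0% and 55.0% of these classes had a region in the gene or within 50 kb. Their median distances were 143, 124 and 33.2 kb. Genes of a domain share their nearest region, so the 35 distances are not independent. Of 70 ends of listed genes, 0 were within 5 kb of a region. This allows up to 4.29% if the ends are taken as independent. The count of 0 cannot be told apart from the 2.78% of the ends of protein-coding genes. The closest was an end of GRB10 at 5.16 kb.

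**Figure D2:**
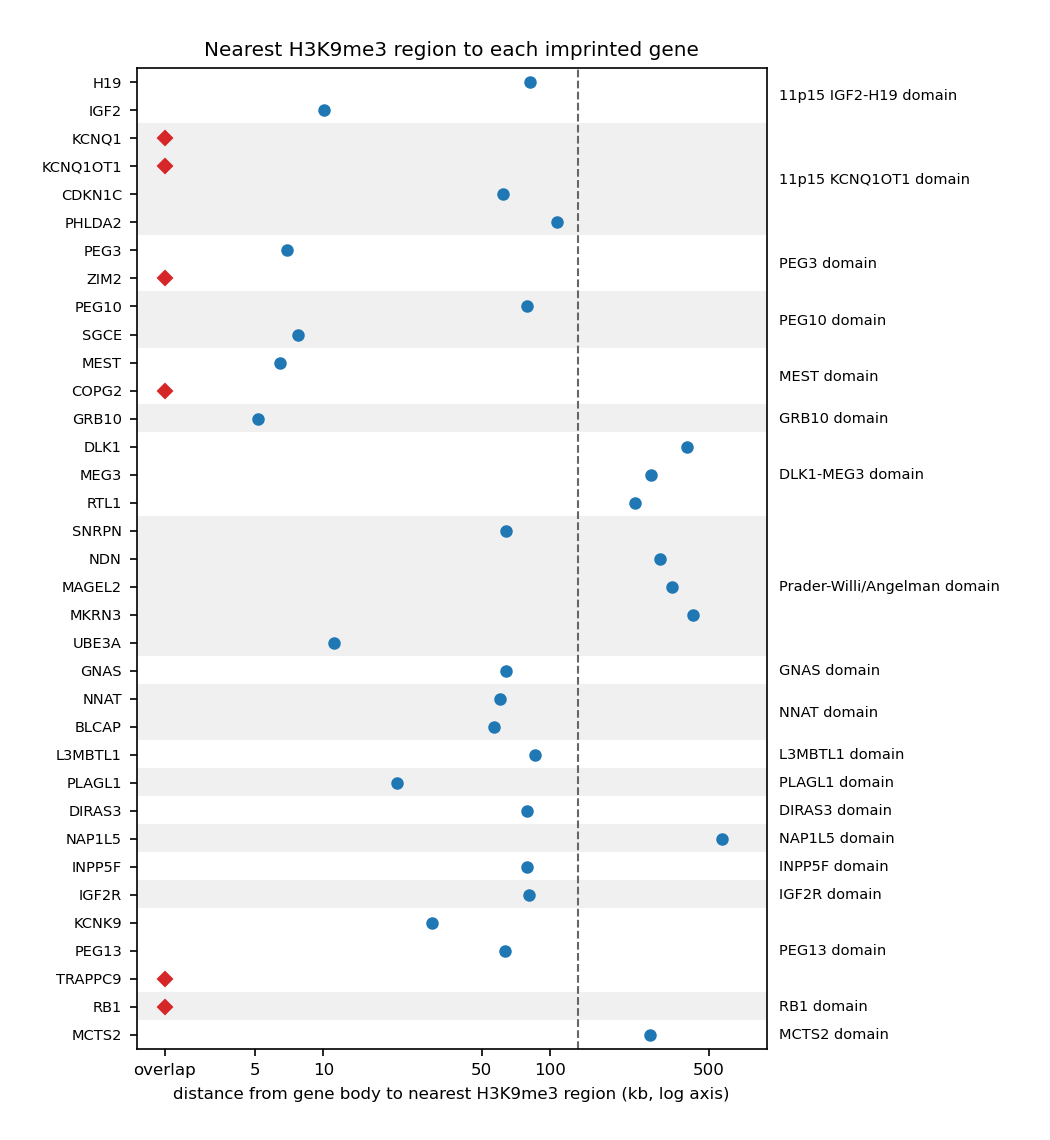
Distance in kb (log axis) from each imprinted gene body to the nearest H3K9me3 region, grouped by domain. Red diamonds are the 6 genes that overlap a region, blue circles the other 29, and the dashed line is the median of all protein-coding genes, 132 kb; the 3 genes of the DLK1-MEG3 domain and NDN, MAGEL2 and MKRN3 sit together far to the right.

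The 16 regions that overlap a listed gene were close to the list as a whole in size. Their median length was 3326 bp, against 3530 bp over all regions, and they ran from 1837 to 15681 bp. The score is a whole number that the authors deposited for each region without a unit. It had a median of 20143 in the 16 regions, against 24180 in the list, and 6 of the 16 were at or above that list median. Per base pair the score was 6.07 at the median, against 6.98. Together the 16 regions covered 75.6 of the 2824 kb spanned by the listed genes, or 2.68%, against 1.09% of the bases of all protein-coding genes. Without KCNQ1 and KCNQ1OT1, left out after their values were seen, the share was 1.47%.

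KCNQ1, a potassium channel gene of heart and epithelia, held 8 of these 16 regions. It spans chromosome 11 from 2445008 to 2849105 (GRCh38, as are all positions here), and 9.92% of its 404 kb was covered. KCNQ1OT1, the long noncoding RNA that is transcribed antisense to KCNQ1 from the paternal copy and silences genes around it, spans 2608328 to 2699994. It was the most covered gene of the list, with 25.9% of its 91.7 kb in 3 regions. The longest, at 2636990 to 2652670 (15681 bp), had a score of 137191, rank 378 of the 10536 regions. Beside it lay regions at 2629385 to 2634253 (score 28705) and at 2659146 to 2662293 (score 19652). These 3 regions held 59.1% of the region length in KCNQ1, while KCNQ1OT1 makes up 22.7% of the length of KCNQ1.

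The other 5 regions of KCNQ1 lay outside KCNQ1OT1. At the lower-coordinate side were regions at 2477844 to 2481011, 2486193 to 2489676 and 2499285 to 2503521. Of these the middle one had the highest score per base pair of the 8, 10.6, and a score of 37092. A region at 2596892 to 2599848 (score 16172) and one at 2818720 to 2821251 (score 19746) were further apart. From the last region of KCNQ1OT1 to the next one, 156 kb held no region. That stretch includes the higher-coordinate 37.7 kb of KCNQ1OT1. CDKN1C, a cyclin-dependent kinase inhibitor expressed from the maternal copy, was 62.0 kb from the last region of KCNQ1. PHLDA2, a maternally expressed gene that restrains placental growth, was 107 kb from the same region. Both sat in 1 region-free stretch of 293 kb. Around genes without a region, the median region-free stretch was 354 kb for the listed genes and 773 kb for all protein-coding genes.

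**Figure D3:**
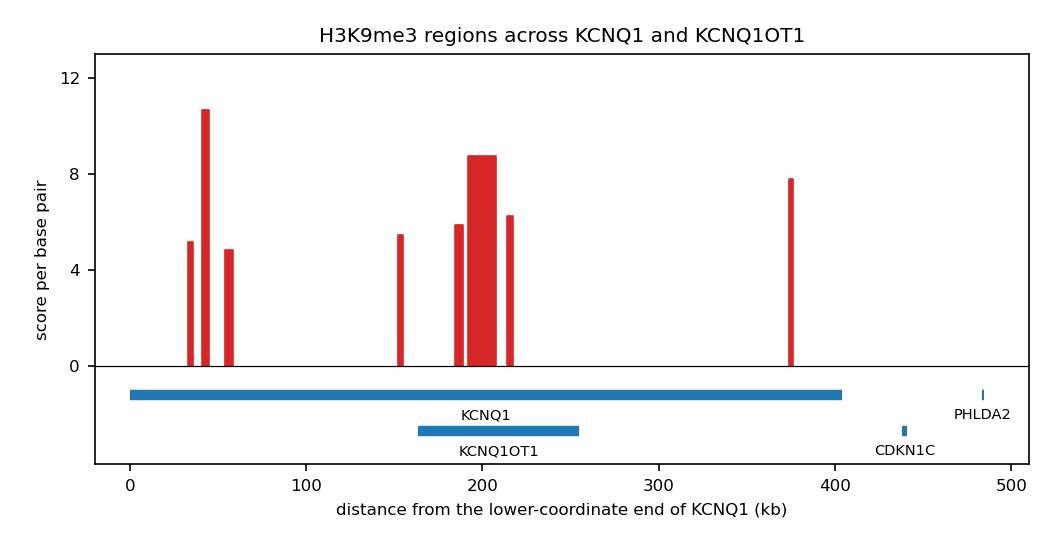
H3K9me3 regions (red, height is the authors' score per base pair) along KCNQ1 and its neighbours, by distance in kb from the lower-coordinate end of KCNQ1; blue bars are gene bodies. Of the 8 regions in KCNQ1, 3 lie in KCNQ1OT1, among them the longest at 15681 bp, and none lies in CDKN1C or PHLDA2.

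On the same chromosome arm, IGF2, the paternally expressed growth factor gene, had its nearest region 10.1 kb away at 2115938 to 2119032, with a score of 20194. A second region at 2082873 to 2085142 had a score of 20526, and both lay between IGF2 and H19. H19, the maternally expressed noncoding RNA, was 81.6 kb from it. Neither gene body held a region.

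Prader-Willi and Angelman syndromes are caused by loss of opposite parental copies of a domain on chromosome 15. None of its 5 listed genes overlapped a region, but regions were dense between them. Between SNRPN, a paternally expressed splicing factor gene, and UBE3A, a ubiquitin ligase gene expressed from the maternal copy in neurons, 5 regions covered 81.6 of 355 kb, or 23%. SNHG14, the long noncoding RNA that runs through this interval and antisense to UBE3A, overlapped all 5 and was covered over 13.7% of its 596 kb. The first, at 25042609 to 25087724, was 45116 bp long with a score of 535932. It ranked 92 by score and 41 by length among all 10536 regions and lay 63.9 kb from SNRPN. The last, at 25310317 to 25322591 (12275 bp, score 73281, rank 750), lay 11.1 kb from UBE3A.

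The long region lay over the SNORD116 genes, small nucleolar RNAs processed from SNHG14 whose loss is linked to Prader-Willi syndrome. Of 30 SNORD116 genes, between 25051476 and 25108352, 20 overlapped the region and 19 lay wholly inside it. The 3 middle regions overlapped the SNORD115 cluster, between 25170723 and 25269858, and held 12 of its 48 genes, 4 in each. Of all genes under 10 kb in the table, 1.90% overlapped a region; the genes of a cluster share regions and are not independent. These snoRNA genes were looked at after the regions were seen. Their copies are nearly alike in sequence, and how reads shared between copies were counted is not given in the sources used here, so assignment to a single copy is uncertain. NDN and MAGEL2, which encode MAGE family proteins, and MKRN3, a gene tied to the timing of puberty, lay in a region-free stretch of 3605 kb. From the nearest region, at 23993609 to 24000584, they were 306 kb, 346 kb and 426 kb away. Whether the stretch holds sequence that reads cannot be placed on was not tested.

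**Figure D4:**
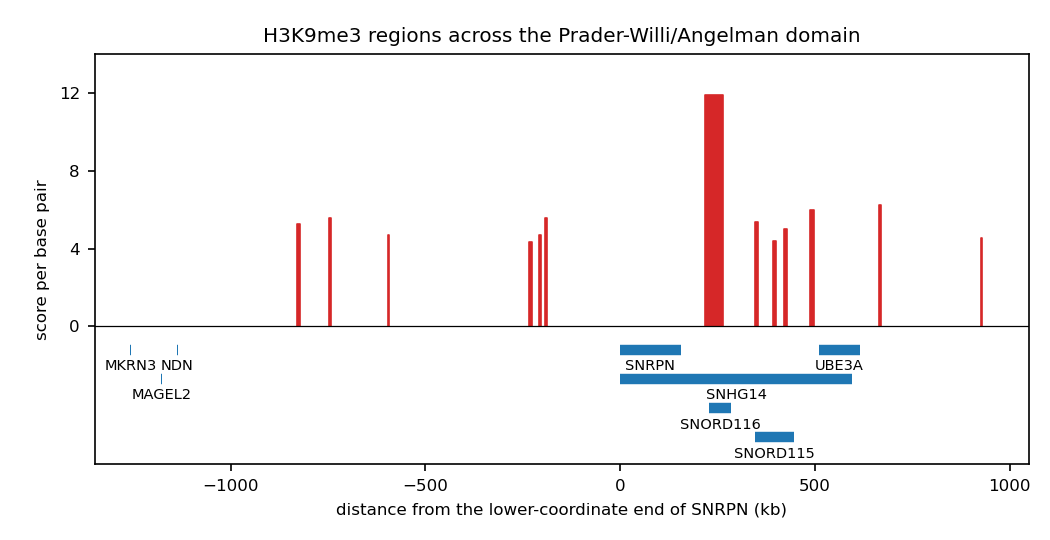
H3K9me3 regions (red, height is the authors' score per base pair) across the Prader-Willi/Angelman domain, by distance in kb from the lower-coordinate end of SNRPN; blue bars are gene bodies and the spans of the SNORD116 and SNORD115 genes. The 5 regions between SNRPN and UBE3A lie in SNHG14, with the 45116 bp region over SNORD116 the tallest and widest, and no region lies near MKRN3, MAGEL2 or NDN.

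ZIM2 and PEG3 are paternally expressed zinc finger genes on chromosome 19 that share their first exons. ZIM2 spans 56774547 to 56840726, and 18.9% of it was covered by 1 region at 56790666 to 56803192 (12527 bp, score 71560, rank 775). PEG3 spans 56810082 to 56840726 within it and had no region in its own body, the nearest being the same one at 6.89 kb. The shared higher-coordinate part of both genes was therefore free of regions. ZIM2 and KCNQ1OT1 were the only listed genes in which regions made up 10% or more of the body. Without the noncoding KCNQ1OT1, that is 1 of 31 protein-coding members. Of all protein-coding genes 2.40% reached this limit, a share that a count of 1 in 31 cannot be told apart from.

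RB1, the retinoblastoma tumour suppressor gene, which carries an imprinted CpG island in an intron, spans chromosome 13 from 48303751 to 48481890 and had 4.04% covered by 2 regions. These were at 48350852 to 48355307 (score 22113) and at 48450229 to 48452977 (score 13995). PPP1R26P1, the pseudogene inside RB1 at which that island arose, was 30.3 kb from the nearer region. TRAPPC9, a vesicle trafficking gene of 731 kb, had 1.81% covered by 4 regions with scores of 12696 to 30365. PEG13, the paternally expressed noncoding RNA nested in TRAPPC9, was 63.5 kb from the nearest of them, and KCNK9, a potassium channel gene expressed from the maternal copy in brain, was 30.0 kb from one. COPG2, a coatomer subunit gene, had 1.59% of its 163 kb covered by a region at 130628327 to 130630913 on chromosome 7 (score 15798). MEST, a paternally expressed hydrolase gene next to it, had its nearest region 6.44 kb from the gene body at 130477143 to 130479736, with a score of 18933.

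The remaining genes had no region. Close to one were GRB10, an adaptor of insulin and growth factor receptors, at 5.16 kb, and SGCE, the epsilon-sarcoglycan gene, at 7.73 kb. The GRB10 region, at 50582349 to 50584913 on chromosome 7, had a score of 13458, with 3.42% of the list at or below it. PLAGL1, a zinc finger transcription factor gene, was 21.1 kb from a region. At 56.3 to 85.6 kb lay BLCAP, NNAT (neuronatin, a membrane protein) within it, GNAS (the gene of the stimulatory G protein alpha subunit), PEG10 (derived from a retrotransposon), INPP5F (a phosphoinositide phosphatase), DIRAS3 (a small GTPase), IGF2R (the receptor that clears IGF2) and L3MBTL1 (a chromatin compaction protein). The genes farthest from any region outside chromosome 15 were NAP1L5 (related to nucleosome assembly proteins) at 575 kb, DLK1 at 401 kb, MEG3 at 278 kb, MCTS2 (a retrogene inside HM13) at 275 kb and RTL1 at 236 kb. DLK1 (a Notch ligand-like protein), MEG3 (a maternally expressed noncoding RNA) and RTL1 (derived from a retrotransposon) shared a single region-free stretch of 1134 kb on chromosome 14. The median stretch around protein-coding genes without a region was 773 kb.

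The surroundings were compared with the chromosomes by extending each domain by 500 kb on both sides. The covered share of these 19 windows ran from 0% for NAP1L5 to 10.4% for PEG3, with a median of 2.06%, against 1.71% over the autosomes. It was above the share of its own chromosome in 11 windows. The PEG3 window had its 10.4% against 5.62% on chromosome 19. RB1 had 4.39% against 1.12% on chromosome 13, the Prader-Willi/Angelman window 4.24% against 1.30% on chromosome 15, and the KCNQ1OT1 window 4.41% against 1.84% on chromosome 11. The IGF2R window had 0.44% against 1.65% on chromosome 6, and the DIRAS3 window 0.50% against 1.29% on chromosome 1. In number, the median window held 4.31 regions per Mb, against 3.61 over the autosomes. Chromosome and autosome values count every position up to the last gene or region. Any stretch without sequence is included and would lower them. The windows of the 2 domains on chromosome 11 overlap, and no test was made.

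**Figure D5:**
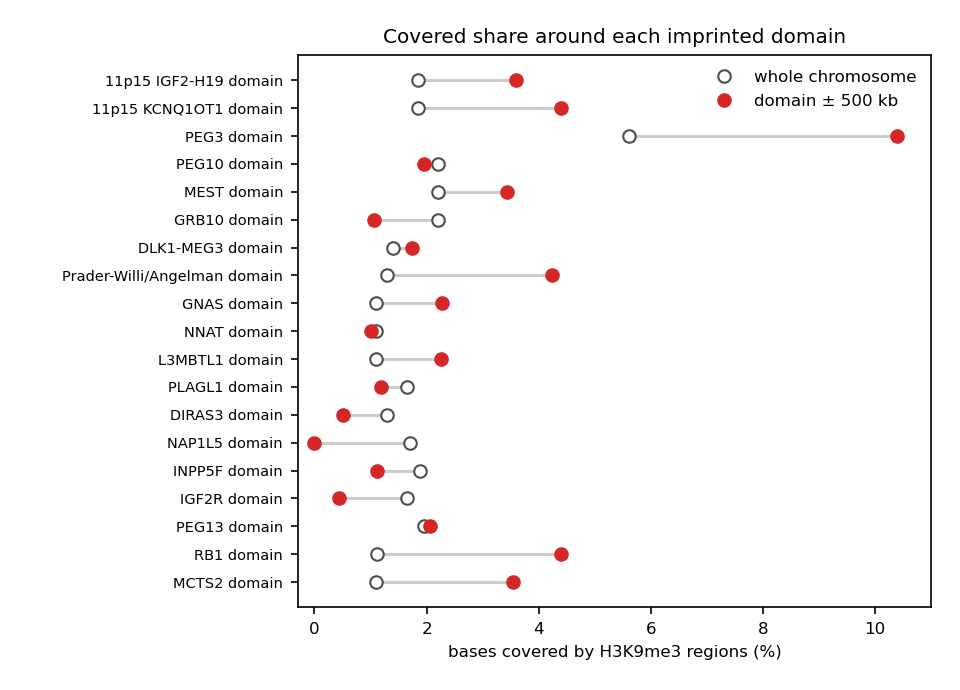
Share of bases (%) covered by H3K9me3 regions in each of the 19 domains extended by 500 kb on both sides (red), beside the share of the whole chromosome (open circles). The red point lies above its chromosome in 11 domains, and the window of NAP1L5 has 0%.

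By expressed copy, 2 of 21 paternally expressed genes overlapped a region (KCNQ1OT1 and ZIM2), 2 of 8 maternally expressed genes (KCNQ1 and RB1), and 2 of 6 whose imprint varies by isoform or tissue (COPG2 and TRAPPC9). As shares these are 9.52% (Wilson 95% interval 2.65 to 28.9%), 25% (7.15 to 59.1%) and 33.3% (9.68 to 70.0%), and each interval includes the 10.5% of protein-coding genes. The classes differ in length, with medians of 20.3, 68.6 and 152 kb, so the counts cannot be told apart from gene length. UBE3A and KCNK9 were counted as maternally expressed, although their imprint is described above for neurons and brain. Which copy these fibroblasts express was not measured.

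A list of 99 neighbouring genes in or near the same domains gave 14 with a region, or 14.1% (Wilson 95% interval 8.61 to 22.3%), against the 10.5% of protein-coding genes above. This share was not matched for gene length. All of the 14 but KLF14, CPA5 and ZC2HC1B were over 100 kb, a class in which 35.8% of protein-coding genes overlapped. KLF14, a maternally expressed transcription factor gene of 3.51 kb near MEST, was covered over 86.9% by a region at 130730007 to 130733746 (3740 bp, score 22003). In the Prader-Willi/Angelman domain, besides SNHG14, ATP10A had 1 region, GABRG3, a GABA receptor subunit gene, had 5 over 7.02% of its length, and OCA2, a pigmentation gene, had 7 over 10.6%. Near PLAGL1, ZC2HC1B had 2 regions and PHACTR2 had 1. The other 7 genes had 1 region each: PPP1R9A and CASD1 near PEG10, CPA5 near MEST (10.5% covered), DDC and COBL near GRB10, GNG12-AS1 around DIRAS3, and COL22A1 near KCNK9. These 7 genes were covered over 0.806% to 10.5% of their lengths.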

How the data were processed

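CUT&RUN for H3K9me3 was made from BJ fibroblasts given ERH siRNA, with an H3K9me3 antibody and pA/G-MNase, per the labels' protocols. The submitters' processing notes name Bowtie2 2.3.4.1, SAMtools 1.16.1, R 3.6.3, deepTools 3.5.0, bedtools 2.27.1, SEACR 1.3 and the build hg38, without saying what each was used for. The authors deposited 1 list of regions, attached to all 3 samples, with a whole-number score per region whose unit is not given in the sources used here. A further column holds a piece number, above 1 in 17 rows, none of them near the genes described.

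Gene positions, types and start sites came from RefSeq tables of GRCh38.p14, without exons, and regions were therefore not placed in exons or introns. A gene overlapped a region when they shared 1 bp. Distances are from the gene body, and gene length classes are under 10 kb, 10 to 100 kb and over 100 kb. Shares are set beside those of all genes, of protein-coding genes or of genes of like length. The interval arithmetic was tested on simulated data, with 0 of 500 checks differing. Tools were Python 3.11.15, numpy 2.4.6, scipy 1.17.1, pandas 2.3.3 and matplotlib 3.10.9.

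The imprinted genes and the other lists were chosen with earlier results of these data known. All 35 genes are named, and of the 99 neighbouring and 27 imprint maintenance genes those that overlap a region. Alternatives were regions at or above the median score, of at least 2 kb, joined within 5 kb or at most 20 score units per base pair, 10% of the gene body covered, other flanks, and rows with a piece number above 1 left out, the last chosen after seeing the data.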

Additional observations from a re-analysis of the deposited data

How the results depend on the processing

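Alternatives gave 43 values for 7 results. Of these, 31 stayed within 1.5 times the count reported or, for the median distance, within its interval. The 6 overlapping genes were also 6 with regions of at least 2 kb and with regions within 5 kb joined. They were 6 with regions above 20 score units per base pair left out, and with gene bodies extended by 5 kb. Of protein-coding genes, 10.1 to 12.4% overlapped under these settings. The joining, the score limit and the extension could not change the count of 6. Nor could the 2 kb limit, because the only shorter region in a listed gene, of 1837 bp, lay in TRAPPC9, which also holds longer ones. The highest score per base pair of a region in a listed gene was 10.6, and 0 of 70 gene ends were within 5 kb of a region. Values fixed in this way are among the 31, which therefore do not measure stability. Keeping only regions at or above the median score shortens the list by construction. It gave 4 overlapping genes (KCNQ1, KCNQ1OT1, ZIM2 and TRAPPC9) in 3 domains, 3 of them protein-coding. Of all protein-coding genes, 6.32% overlapped at this cutoff. Within 50 kb there were 8 listed genes, against 17.9% of protein-coding genes. The median distance was 225 kb (264 kb over protein-coding genes). Of the other lists, 7 neighbouring genes and 1 imprint maintenance gene overlapped. Requiring 10% of the gene body gave 2 genes, 1 of them protein-coding, in 2 domains, with 4 neighbouring genes and 1 imprint maintenance gene. Of all protein-coding genes, 2.40% met this limit. Within 200 kb there were 27 genes, against 62.1% of protein-coding genes. Depth is unknown, so a gene without a region may carry H3K9me3 below the authors' threshold. No paired analysis was possible because the list merges the replicates of 1 group.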

Other observations

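Genes that set or keep imprints were examined as a separate list. Of 27, 3 had a region in the gene body (11.1%, Wilson 95% interval 3.85 to 28.1%), and of all protein-coding genes 10.5% did. SETDB1, the H3K9 methyltransferase recruited by TRIM28, had 1 region on chromosome 1 at 150931112 to 150932978 over 4.85% of its length, with a score of 12988, near the lowest of the list (12640). ZNF445, a zinc finger protein that binds imprinted control regions, had 1 on chromosome 3 at 44459387 to 44462474 over 6.72%. NLRP7, a gene of the egg whose maternal loss disturbs imprints, had 1 on chromosome 19 at 54924357 to 54937155 over 30.0%, with a score of 66012, rank 887 of the list.

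The small RNA genes of the DLK1-MEG3 domain lay in stretches without regions. Between DLK1 and DIO3, 0 of 54 microRNA genes overlapped a region, which were 72.6 to 325 kb away, and 0 of 40 SNORD113 and SNORD114 genes did, at 146 to 215 kb. Of all genes under 10 kb, 1.90% overlapped a region, so these counts of 0 are near the background. Of the SNORD116 and SNORD115 genes of chromosome 15, 20 of 30 and 12 of 48 overlapped one. These families were chosen after the values were seen, and no test was made. MIR483 in IGF2 was 15.1 kb, MIR335 in MEST 16.4 kb and MIR675 in H19 86.0 kb from a region.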
